A study of Mus musculus with 18 samples.

Results

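The genes examined were 10 mouse genes, 8 annexins and 2 of their S100 partners, in macrophages that met dying or living cells or none. The genes were chosen by name, as *Anxa1* to *Anxa7*, *Anxa11*, *S100a10* and *S100a11*, out of the 49315 genes that were counted. All 10 passed the filter on low counts in each of the 12 comparisons made. Annexins are proteins that bind acidic membrane lipids, above all phosphatidylserine, when calcium is present. Phosphatidylserine is the lipid that a dying cell shows on its surface and that phagocytes read before they engulf it, and annexins also help to seal torn membranes and to steer vesicles. S100 proteins are small calcium sensors, and a dimer of them can tie a pair of annexin molecules together: S100A10 is the classical partner of annexin A2, and S100A11 that of annexin A1.

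The libraries came from bone marrow-derived macrophages (BMDMs) labelled WT, which were HDAC3 f/f cells according to the methods of the study, or HDAC3 KO, from mice in which Cre under the LysM (*Lyz2*) promoter removes a loxP-flanked exon of *Hdac3* in myeloid cells (M-HDAC3-/-). Cells of both genotypes were left untreated, given non-apoptotic cells (NACs) or given apoptotic cells (ACs), which makes 6 groups of 3 libraries, described as biological replicates. The cells offered were K562, a human leukemia line, kept intact as NACs or exposed to UV-B for 15 min and used 2 h later as ACs. Coculture lasted 45 min and RNA was taken 5 h after the wash, and every culture had grown in medium with fetal bovine serum and L929-conditioned medium. KO and WT here name the labels, since the summed *Hdac3* count, which also covers the exons left in place, did not separate them: it lay between 3.38 and 74.6 CPM over all libraries, and its log2 difference between KO and WT was 0.49 in untreated, -0.34 in NACs and -0.22 in ACs cultures (edgeR adjusted p = 0.645, 0.836 and 0.841).

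Total counts ran from 4704491 in replicate 1 of untreated KO to 26421267, with a median of 16477929. The 10 macrophage markers summed to between 11858 and 23941 CPM in each library, and defining ones such as *Csf1r* and *Cd68* were at 1171 and 1019 CPM or more in all of them. Of 12 erythroid genes looked at for the K562 cells, *Hbb-bh1* was at 0 in all 18 libraries and the list summed to 48.5 CPM in replicate 3 of WT ACs and 19.5 CPM in replicate 3 of KO ACs, both given apoptotic K562 cells, and to between 0.757 and 5.11 CPM in the other libraries. Granulocyte markers summed to 132 to 1081 CPM, fibroblast markers to 6.43 to 241 CPM and dendritic cell markers to 6.81 to 40.2 CPM. In the dendritic cell list *Cd24a* had a median of 13.0 CPM, and every other gene a median of 1.21 CPM or less. The mitochondrial share of counts was 0.496% to 0.621% in untreated WT, 0.294% to 0.404% in WT NACs and 0.341% to 0.480% in WT ACs. In KO it was 0.272% to 0.434% untreated, 0.409% to 0.577% with NACs and 0.493% to 1.189% with ACs. Its part in the differences between groups was not tested. The libraries also differed in the base composition of what they held. Each gene's log2 deviation from its own mean over all libraries was taken, and the median deviation of genes in the upper quartile of GC content minus that in the lower quartile averaged -1.03 in untreated WT, 0.46 in WT NACs, -0.01 in WT ACs, 1.05 in untreated KO, -0.63 in KO NACs and 0.20 in KO ACs. The groups of untreated WT (-1.27 to -0.57) and untreated KO (0.47 to 1.58) did not overlap in this measure. The same measure for exon length, long minus short genes, was -0.12 to 0.56 in untreated WT, -0.77 to -0.29 in WT NACs, -0.10 to 0.13 in WT ACs, -0.46 to -0.36 in untreated KO, -0.03 to 0.31 in KO NACs and 0.14 to 0.89 in KO ACs. For these reasons member results are also given from a fit that carries an offset for GC content and exon length in each library.

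All levels are CPM, a gene's count relative to the library's total after TMM scaling, and levels of different genes were compared only after division by exon length in kb. By the median over all libraries, *S100a11* stood highest with 285 CPM per kb, followed by *Anxa5* with 268, *Anxa1* with 208, *Anxa2* with 129, *Anxa6* with 81.1, *S100a10* with 61.6, *Anxa4* with 26.0, *Anxa7* with 24.3, *Anxa11* with 9.31 and *Anxa3* with 8.94. Neighbours in this order were often not distinct: *S100a11* was above *Anxa5* in 9 of 18 libraries, *Anxa6* above *S100a10* in 10 and *Anxa11* above *Anxa3* in 9. *Anxa5*, the annexin used as a probe for exposed phosphatidylserine, ranked among the highest 3 members in every library, and it was above *Anxa1* in 17 of them. *S100a11* ranked first in 8 libraries and *Anxa5* in 9. The spread of 1 gene over the libraries was wide, from 3.28-fold between lowest and highest library for *Anxa7* to 22.4-fold for *Anxa11*.

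**Figure D1:**
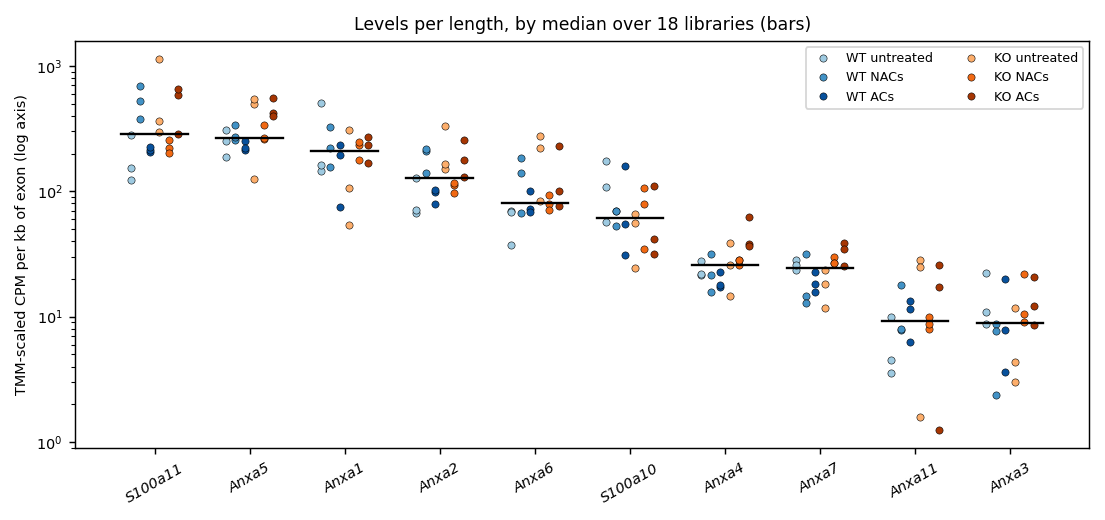
TMM-scaled CPM per kb of exon on a log axis for each gene, in order of the median over 18 libraries (bars), with 1 point per library coloured by group. *S100a11*, *Anxa5* and *Anxa1* had medians from 208 to 285, whereas *Anxa11* and *Anxa3* had medians near 9 and overlapped in full.

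*S100a11* and *Anxa2* had groups without overlap in 7 of the 9 pairwise comparisons each, the highest number among the members. In single comparisons 10.4% to 40.9% of all genes had no overlap, and the 9 comparisons reuse the same 6 groups. *S100a11* and *Anxa2* moved together. Both were low in untreated WT, high in WT NACs and low again in WT ACs, and in KO the order was the opposite: high in untreated, low in NACs and high in ACs. *S100a11* (ENSMUSG00000027907, GRCm38 chr3:93520488-93526287, plus strand) encodes a calcium sensor that binds annexin A1 at membranes. Its levels were 62.9, 78.1 and 145 CPM in untreated WT, 267, 193 and 353 CPM in WT NACs, and 104, 109 and 115 CPM in WT ACs. In KO they were 151, 187 and 577 CPM untreated, 114, 130 and 103 CPM with NACs, and 146, 300 and 332 CPM with ACs. Thus the WT NACs libraries were all above both other WT groups, and the KO NACs libraries all below both other KO groups.

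In WT, *S100a11* rose 2.76-fold with NACs against untreated (log2 1.47 ± 0.41 SE, edgeR quasi-likelihood adjusted p = 0.0261, n = 3 against 3), the only member edgeR called in that comparison, where 8.52% of all genes tested were called. That call rests on single libraries: in fits without 1 library it held only without replicate 3 of untreated WT or replicate 2 of WT NACs, and the adjusted p ran from 0.00269 to 0.207. With the GC and length offset the log2 difference was 1.58 and the adjusted p 0.166. In KO the same contrast gave a log2 difference of -1.23 ± 0.49 (unadjusted p = 0.0296, adjusted p = 0.127), and -0.36 (adjusted p = 0.554) without replicate 2 of untreated KO, the library at 577 CPM. The difference between those responses, an interaction of genotype and treatment, was -2.59 ± 0.63 on the log2 scale and was called (adjusted p = 0.00471). *S100a11* kept this call in all 12 fits that left out 1 library, with values from -3.19 to -1.94, and was the only member to keep it with the GC and length offset (-2.77 ± 0.83, adjusted p = 0.0448). With a block for the replicate number added to that offset, the value was -2.31 and the call was lost (adjusted p = 0.0656).

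ACs against NACs moved *S100a11* the opposite way in each genotype. The log2 difference was -1.27 ± 0.34 in WT (unadjusted p = 0.00222, adjusted p = 0.898) and 1.18 ± 0.39 in KO (unadjusted p = 0.00511, adjusted p = 0.06), and neither passed over all genes in edgeR, while the DESeq2 Wald test called the KO difference (adjusted p = 0.0323). Their interaction was 2.47 ± 0.51 (unadjusted p = 9.04e-05, adjusted p = 0.0522). With the GC and length offset, the KO difference became 1.31 (adjusted p = 0.0239) and the interaction 2.51 (adjusted p = 0.0157). Against WT, *S100a11* in KO differed by 1.67 ± 0.57 in untreated cultures (adjusted p = 0.0643), by -1.20 ± 0.34 with NACs (adjusted p = 0.0711) and by 1.19 ± 0.41 with ACs (adjusted p = 0.0946), with no overlap of the 3 and 3 libraries in any of them. Without replicate 2 of untreated KO the untreated difference was 0.73 (adjusted p = 0.344). With the offset the differences were 2.13 untreated (adjusted p = 0.168), -0.99 with NACs (adjusted p = 0.191) and 1.43 with ACs (adjusted p = 0.0175).

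*Anxa2* (ENSMUSG00000032231, chr9:69453620-69491795, plus strand) encodes a membrane and actin-binding annexin that, at the cell surface, is a receptor for plasminogen and its activator. Its levels were 253, 264 and 476 CPM in untreated WT, 777, 520 and 812 CPM in WT NACs, and 295, 371 and 380 CPM in WT ACs. In KO they were 561, 1228 and 615 CPM untreated, 359, 416 and 431 CPM with NACs, and 484, 660 and 955 CPM with ACs. The groups separated as for *S100a11*. The NACs against untreated difference was 1.04 ± 0.42 in WT (unadjusted p = 0.0154, adjusted p = 0.0836) and -0.82 ± 0.37 in KO (unadjusted p = 0.0485, adjusted p = 0.162), and their interaction of -1.75 ± 0.53 was called (adjusted p = 0.0153), also in all 12 fits without 1 library. It was -1.42 with the offset (adjusted p = 0.0633) and -1.12 with library totals alone (adjusted p = 0.0852). Without replicate 2 of untreated KO, at 1228 CPM, the NACs against untreated difference in KO was -0.36 (adjusted p = 0.545). ACs against NACs gave -0.98 ± 0.34 in WT (unadjusted p = 0.0123, adjusted p = 0.898), 0.81 ± 0.38 in KO (unadjusted p = 0.0432, adjusted p = 0.182, and 0.41 with the offset, adjusted p = 0.407) and an interaction of 1.81 ± 0.49 (unadjusted p = 0.00145, adjusted p = 0.0704). KO and WT differed by 1.24 ± 0.47 untreated, -0.78 ± 0.35 with NACs and 0.95 ± 0.40 with ACs, none of which passed over all genes in edgeR (adjusted p = 0.0856, 0.18 and 0.157). The untreated difference passed with the DESeq2 Wald test (1.34, adjusted p = 0.0228) and with all 18 libraries in one edgeR fit (1.28, adjusted p = 0.0248). The untreated value was 0.73 without that library (adjusted p = 0.339), and with the offset the value with ACs was 0.49 (adjusted p = 0.293).

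**Figure D2:**
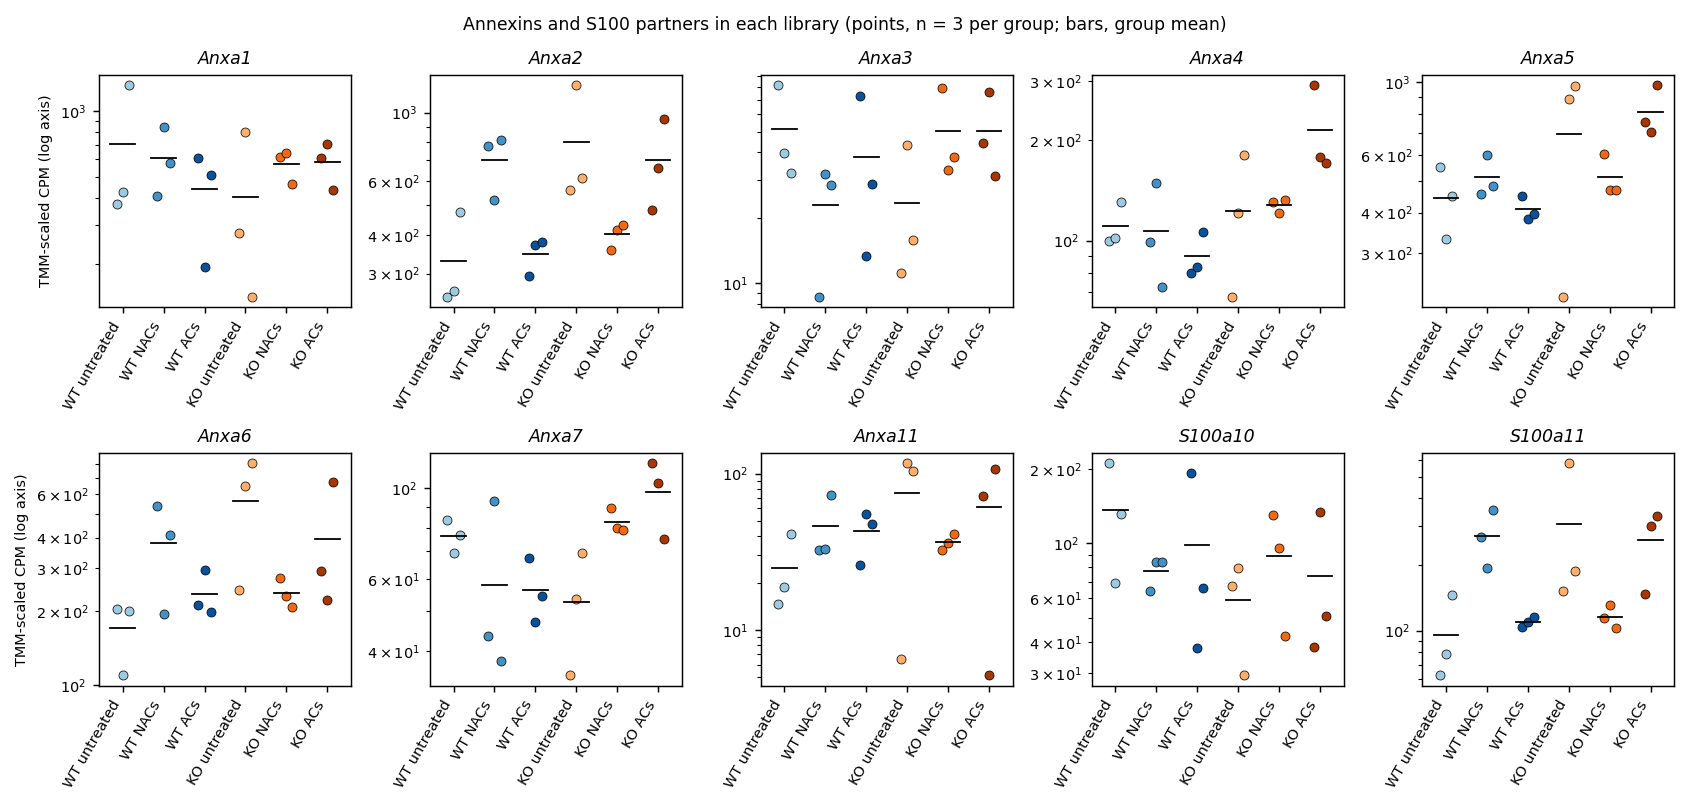
TMM-scaled CPM of each member on a log axis, 1 panel per gene, with 3 libraries per group as points and the group mean as a bar. *S100a11* and *Anxa2* alternate between low and high groups, from means of 95.3 and 331 CPM in untreated WT to 305 and 801 CPM in untreated KO.

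Across the 18 libraries the log2 levels of *Anxa2* and *S100a11* followed each other with Pearson's r of 0.97 and Spearman's rho of 0.957, and with r of 0.93 once group means were removed. These points share their library, depth and scaling, and the value is given as a description. Per length, *S100a11* stood at 174% to 343% of *Anxa2* in every library. *Anxa2* and its textbook partner *S100a10* did not go together in that way (rho -0.29, and r of -0.00075 within groups), and *S100a10* ranged from 14.7% to 256% of *Anxa2* per length. Within each genotype the group means of *Anxa2* and *S100a11* had the order of the GC measure, and *S100a11* is short, with an exon length at or above that of 3.29% of kept genes, and the part of either in their levels was not tested beyond the offset. *Anxa1* and its partner *S100a11* had a rho of 0.267 and an r of 0.55 within groups.

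**Figure D3:**
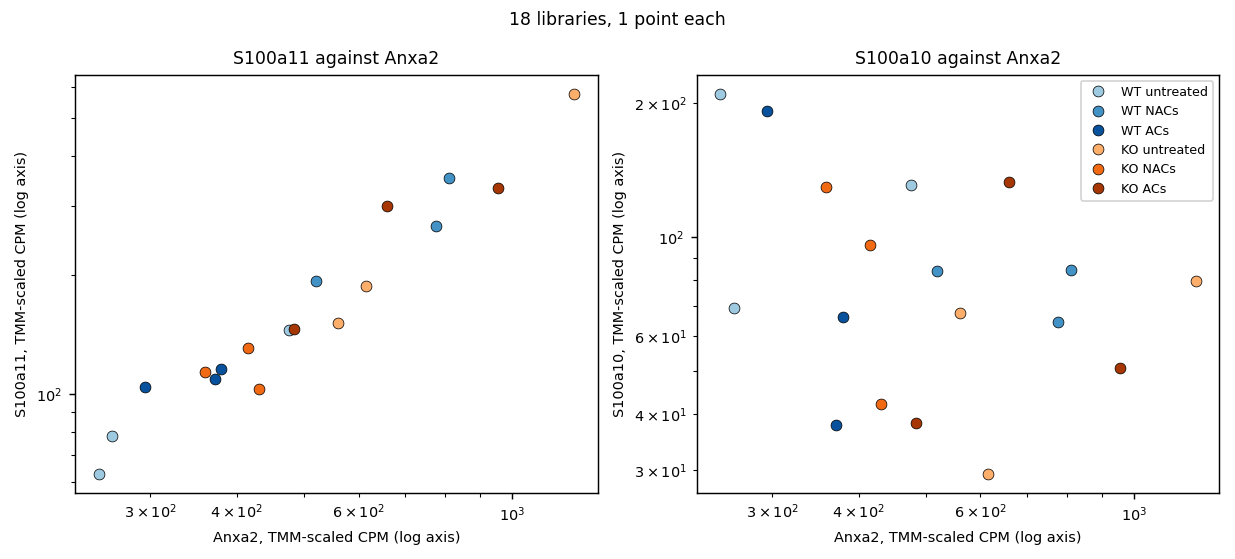
*S100a11* (left) and *S100a10* (right) against *Anxa2*, each in TMM-scaled CPM on log axes, with 1 point per library coloured by group. *S100a11* rises with *Anxa2* (rho 0.957), while *S100a10* does not (rho -0.29).

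Because *Anxa2* and *S100a11* moved together, the bases before their starts are shown, taken from the RefSeq promoter table of GRCm38.p6, in which 7 of the 10 members had an entry (all but *Anxa3*, *Anxa6* and *S100a10*). The stretch for *Anxa2* is chr9:69453433-69453619 and that for *S100a11* is chr3:93520246-93520487, both on the plus strand and both ended before the first base of the gene model used for counting. Letters in capitals mark matches, on either strand, to the letters of the GC box (GGGCGG), the TATA box (TATAAA), the CCAAT box, the AP-1 motif (TGANTCA, where N is any base) or the core of the PU.1 motif (GAGGAA).
Anxa2: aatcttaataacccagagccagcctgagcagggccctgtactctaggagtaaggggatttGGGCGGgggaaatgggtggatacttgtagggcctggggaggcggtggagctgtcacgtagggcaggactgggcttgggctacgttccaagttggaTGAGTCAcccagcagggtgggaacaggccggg
S100a11: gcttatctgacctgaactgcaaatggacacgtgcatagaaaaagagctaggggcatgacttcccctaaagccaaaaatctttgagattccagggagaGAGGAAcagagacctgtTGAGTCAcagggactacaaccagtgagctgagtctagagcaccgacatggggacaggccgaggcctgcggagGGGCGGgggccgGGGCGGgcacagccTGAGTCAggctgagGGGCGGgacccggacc
*Anxa2* held 1 AP-1 match and 1 GC box in 187 bases, and *S100a11* held 2 AP-1 matches, 3 GC boxes and 1 PU.1 match in 242 bases. The full 250 bases before the RefSeq start of *Anxa2*, not all printed, held 3 GC boxes and 1 TATA box. Among all stretches of 250 bases, 32.7% held the GC box and 12.4% the TATA box. For *S100a11* the counts were the same in 250 bases. Over all 32851 promoters of the table, the AP-1 letters occurred in 5.14% of stretches of 187 bases and in 6.64% of stretches of 242 bases, and the GC box in 22.2% and 31.6%. The PU.1 letters occurred in 17.8% and 22.5% of these stretches. The AP-1 letters were in none of the 7 stretches of the other 5 members with an entry. A match of letters is not a bound site, and binding was not measured here.

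*S100a10* (ENSMUSG00000041959, chr3:93555080-93564643) encodes the S100 protein that has lost calcium binding and holds annexin A2 in a tetramer. Its levels were 210, 69.4 and 131 CPM in untreated WT, 64.3, 83.8 and 84.5 CPM in WT NACs, and 192, 37.9 and 66.2 CPM in WT ACs. In KO they were 67.4, 79.9 and 29.4 CPM untreated, 130, 96.2 and 42.1 CPM with NACs, and 38.2, 133 and 50.8 CPM with ACs. No pair of groups was free of overlap for this gene. NACs against untreated gave -0.88 ± 0.39 in WT (unadjusted p = 0.026, adjusted p = 0.106), untreated KO against untreated WT gave -1.29 ± 0.52 (unadjusted p = 0.0274, adjusted p = 0.0968), and the interaction for NACs against untreated was called at 1.77 ± 0.64 (adjusted p = 0.0388). The interaction kept its call in 4 of 12 fits without 1 library (without replicate 3 of untreated WT, 2 of WT NACs, 2 of untreated KO or 3 of KO NACs), with adjusted p from 0.0456 to 0.231, and was 1.60 with the offset (adjusted p = 0.0958). It fell to 1.04 without replicate 1 of untreated WT and to 1.17 without replicate 3 of untreated KO, and was 1.37 by the DESeq2 Wald test (adjusted p = 0.0965). The WT difference was -0.40 without replicate 1 of untreated WT (adjusted p = 0.603). The level per length of *S100a11* relative to *S100a10* was 0.709 to 2.67 in untreated WT and 5.48 to 9.91 in WT NACs, and 5.31 to 17.1 in untreated KO and 2.08 to 5.79 in KO NACs.

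*Anxa6* (ENSMUSG00000018340, chr11:54979108-55033445, minus strand) encodes the largest annexin, with a doubled core, which works in endocytosis and cholesterol traffic. It stood at 204, 110 and 201 CPM in untreated WT, 540, 196 and 409 CPM in WT NACs, and 213, 296 and 199 CPM in WT ACs. In KO it stood at 244, 653 and 804 CPM untreated, 272, 232 and 208 CPM with NACs, and 292, 222 and 674 CPM with ACs. *Anxa6* was higher in untreated KO than in untreated WT by 3.11-fold (log2 1.64 ± 0.50, adjusted p = 0.0492), without overlap and as the only member called by edgeR, where 11.6% of all genes were called. This call held in 1 of the 6 fits without 1 library, the one without replicate 1 of untreated KO, with adjusted p from 3.58e-05 to 0.22, and the difference was 0.84 with the offset (adjusted p = 0.319) and 1.17 with library totals alone (adjusted p = 0.0775). The DESeq2 Wald test and the joint fit of all 18 libraries called *Anxa2* and *S100a11* beside it. NACs against untreated gave 1.09 ± 0.41 in WT (unadjusted p = 0.00918, adjusted p = 0.0673) and -1.07 ± 0.42 in KO (unadjusted p = 0.0295, adjusted p = 0.127), which the offset brought to 0.58 and -0.43 (adjusted p = 0.378 and 0.52). The WT value was 0.72 without replicate 1 of WT NACs (adjusted p = 0.371). The interaction was -2.05 ± 0.61 and was called (adjusted p = 0.0136), also in all 12 fits without 1 library, but was -0.96 with the offset (adjusted p = 0.183). The interaction for ACs against NACs was 1.43 ± 0.60 (unadjusted p = 0.0273, adjusted p = 0.194), 0.66 without replicate 3 of KO ACs (adjusted p = 0.532) and 0.73 with the offset (adjusted p = 0.36). The GC measure of the groups moved with these levels of *Anxa6*, whose own transcripts have 53.7% GC, at or above those of 68.4% of kept genes, and its part in them was not tested beyond this offset.

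*Anxa3* (ENSMUSG00000029484, chr5:96793339-96845966), known from neutrophil granules and phagosomes, had its higher group means where *Anxa2* had its lower ones among the untreated and NACs groups, though not with ACs in KO. It was at 81.9, 39.8 and 32.1 CPM in untreated WT, 8.63, 31.7 and 28.2 CPM in WT NACs, and 72.7, 13.2 and 28.8 CPM in WT ACs. In KO it was at 11.1, 43.1 and 15.8 CPM untreated, 79.2, 33.1 and 38.2 CPM with NACs, and 44.1, 76.1 and 31.3 CPM with ACs. All 3 WT NACs libraries were below untreated WT and below KO NACs. NACs against untreated gave -1.23 ± 0.41 in WT (unadjusted p = 0.00452, adjusted p = 0.0512) and 1.29 ± 0.57 in KO (unadjusted p = 0.046, adjusted p = 0.158), with a called interaction of 2.65 ± 0.83 (adjusted p = 0.0213). It kept that call in 4 of 12 fits without 1 library (replicate 3 of untreated WT or replicate 2 of WT NACs, untreated KO or KO NACs), with adjusted p up to 0.0988, and was 1.58 with the offset (adjusted p = 0.171). The WT value was -0.71 without replicate 1 of untreated WT, and the KO value 2.09 without replicate 2 of untreated KO and 0.75 without replicate 1 of KO NACs. With the offset they were -0.79 and 0.65 (adjusted p = 0.379 and 0.55). KO NACs against WT NACs gave 1.16 ± 0.46 (unadjusted p = 0.0218, adjusted p = 0.158), or 0.65 without replicate 1 of KO NACs (adjusted p = 0.504), and ACs against untreated in KO gave 1.26 ± 0.57 (unadjusted p = 0.0392, adjusted p = 0.329). The latter was 2.06 without replicate 2 of untreated KO and 0.80 without replicate 2 of KO ACs, and the offset brought these differences to 0.76 and 0.69 (adjusted p = 0.365 and 0.603). Summed granulocyte markers were at 132 to 874 CPM in untreated WT, 623 to 989 CPM in WT NACs, 466 to 1081 CPM in untreated KO and 231 to 727 CPM in KO NACs, and their part in these differences was not tested.

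*Anxa7* (ENSMUSG00000021814, chr14:20455261-20480133) and *Anxa11* (ENSMUSG00000021866, chr14:25842156-25886804) encode annexins with long N-terminal tails, which bind the calcium sensor ALG-2. *Anxa7* was at 83.4, 69.4 and 76.6 CPM in untreated WT, 43.5, 93.0 and 37.8 CPM in WT NACs, and 67.6, 47.0 and 54.4 CPM in WT ACs. In KO it was at 35.0, 53.7 and 69.3 CPM untreated, 89.2, 79.7 and 79.0 CPM with NACs, and 115, 103 and 74.96 CPM with ACs. Thus untreated KO was below untreated WT, and below both treated KO groups, without overlap. NACs and ACs against untreated in KO gave 0.83 ± 0.34 and 1.04 ± 0.47 (unadjusted p = 0.0353 and 0.04, adjusted p = 0.138 and 0.33), and 0.56 and 0.66 with the offset (adjusted p = 0.312 and 0.443). The interaction for NACs against untreated was called at 1.40 ± 0.54 (adjusted p = 0.0476), held only without replicate 2 of WT NACs among the fits without 1 library (adjusted p from 0.00596 to 0.231) and was 0.91 with the offset (adjusted p = 0.138) and 1.03 by the DESeq2 Wald test (adjusted p = 0.106). It was 0.89 without replicate 3 of WT NACs and 0.91 without replicate 1 of untreated KO. The interaction for ACs against untreated was 1.32 ± 0.53 (unadjusted p = 0.0218, adjusted p = 0.152), and 0.78 with the offset (adjusted p = 0.304). *Anxa11* was low in untreated WT (14.7, 18.8 and 40.9 CPM), and fell to 6.54 CPM in replicate 1 of untreated KO and 5.17 CPM in replicate 2 of KO ACs, where the other 2 libraries of each group were between 71.7 and 116 CPM. Its groups overlapped in all 9 pairwise comparisons, and edgeR gave it an unadjusted p under 0.05 only for NACs against untreated in WT (0.87 ± 0.38, unadjusted p = 0.0242, adjusted p = 0.102). That difference was 0.28 with the offset (adjusted p = 0.714), 0.35 without replicate 3 of WT NACs (adjusted p = 0.629) and 1.35 without replicate 3 of untreated WT (adjusted p = 0.0426). Without replicate 1 of untreated KO, edgeR called *Anxa11* for untreated KO against WT (2.03, adjusted p = 1.25e-05), beside 5887 of 12714 genes. It was then also called for NACs against untreated in KO (-1.45, adjusted p = 0.00418), beside 4441 of 12493 genes. The interaction of NACs against untreated was called too (-2.43, adjusted p = 0.000904), beside 6297 of 13625 genes. Without replicate 2 of KO ACs, *Anxa11* was called for ACs against NACs in KO (1.27, adjusted p = 0.00513), beside 3013 of 12623 genes.

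*Anxa4* and *Anxa5* were higher in KO than in WT macrophages that had met ACs, without overlap, and edgeR called neither. *Anxa4* (ENSMUSG00000029994, chr6:86736840-86793584), a membrane-aggregating annexin of epithelia and secretory cells, was at 292, 178 and 171 CPM in KO ACs and 80.0, 83.3 and 106 CPM in WT ACs. *Anxa5* (ENSMUSG00000027712, chr3:36448923-36475894) was at 754, 703 and 980 CPM in KO ACs and 449, 381 and 396 CPM in WT ACs. The log2 difference was 1.20 ± 0.40 for *Anxa4* (unadjusted p = 0.00705, adjusted p = 0.0853) and 0.93 ± 0.39 for *Anxa5* (unadjusted p = 0.0262, adjusted p = 0.147) in edgeR, and with the offset 0.85 (adjusted p = 0.0524) and 0.73 (adjusted p = 0.0727). The DESeq2 Wald test called *Anxa4* (adjusted p = 0.0228). In KO both were also above their NACs levels in every library (*Anxa4* 131, 121 and 132 CPM, *Anxa5* 605, 467 and 469 CPM), while the ranges of untreated KO were wide at 67.9 to 180 CPM and 221 to 976 CPM. Without replicate 1 of untreated KO, at 221 CPM, *Anxa5* was called higher in untreated KO than in untreated WT (0.91, adjusted p = 0.0458), beside 5887 of 12714 genes. The interaction for ACs against NACs of *Anxa5* was 0.98 ± 0.46 (unadjusted p = 0.0433, adjusted p = 0.237), 0.61 without replicate 2 of WT NACs (adjusted p = 0.418) and 0.65 with the offset (adjusted p = 0.286).

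*Anxa1* (ENSMUSG00000024659, chr19:20373428-20390944) encodes a glucocorticoid-induced protein that apoptotic cells expose and that dampens inflammation through formyl peptide receptors. It gave no unadjusted p under 0.05 with edgeR in any of the 12 comparisons. Its group means ran from 406 ± 348 CPM (SD, n = 3) in untreated KO to 705 ± 528 CPM in untreated WT, and single libraries from 141 CPM (replicate 3 of untreated KO) to 1314 CPM (replicate 3 of untreated WT). Pairwise log2 differences lay between -0.78 and 0.66, and its groups always overlapped.

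The genotype comparisons were also read over the 10 members. In untreated cultures 1 member was called and 4 had an unadjusted p under 0.05, beside 37.2% of all genes, and 4 had groups that did not overlap (*Anxa2*, *Anxa6* and *S100a11* higher, *Anxa7* lower in KO), beside 40.9% of all genes. Dendritic cell markers, a sum made up mainly of *Cd24a*, came to 16.9 to 40.2 CPM in untreated WT and 6.81 to 14.1 CPM in untreated KO. The mitochondrial share of counts was 0.496% to 0.621% in untreated WT and 0.272% to 0.434% in untreated KO. The part of either in these differences was not tested. With NACs, edgeR called none of the members and 0.864% of all genes, and 3 members had an unadjusted p under 0.05, beside 24.2% of all genes. DESeq2 called 1 member there (*S100a11*), beside 434 of 11923 genes. There 3 members did not overlap, beside 27.0% of all genes, with *Anxa3* higher and *Anxa2* and *S100a11* lower in KO. With ACs, edgeR again called none, beside 3.75% of all genes, and 4 members had an unadjusted p under 0.05, beside 24.3% of all genes. DESeq2 called 2 members (*Anxa4* and *S100a11*), beside 1373 of 12304 genes. With ACs *Anxa2*, *Anxa4*, *Anxa5*, *Anxa7* and *S100a11* were all higher in KO without overlap, 5 of 10 members beside 28.3% of all genes in either direction and 14.8% in this one, and the median log2 difference was 0.71 over the members and -0.01 over all genes. The *Anxa7* difference did not reach an unadjusted p under 0.05 there. Macrophage markers summed to 11860 to 14219 CPM in WT ACs and 17474 to 21032 CPM in KO ACs, without overlap. Fibroblast markers, whose cells express several annexins, summed to 8.28 to 207 CPM in WT ACs and 86.8 to 241 CPM in KO ACs. Dendritic cell markers summed to 12.8 to 36.3 and 7.91 to 11.0 CPM. The part of these markers in the differences was not tested. The mitochondrial share of counts was 0.341% to 0.480% in WT ACs and 0.493% to 1.189% in KO ACs. The share of the 10 highest genes was 16.52% to 20.07% in WT ACs and 20.14% to 26.86% in KO ACs. The part of these shares in the differences was not tested. Fewer cells of a type and less RNA per cell cannot be told apart in such bulk libraries.

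**Figure D4:**
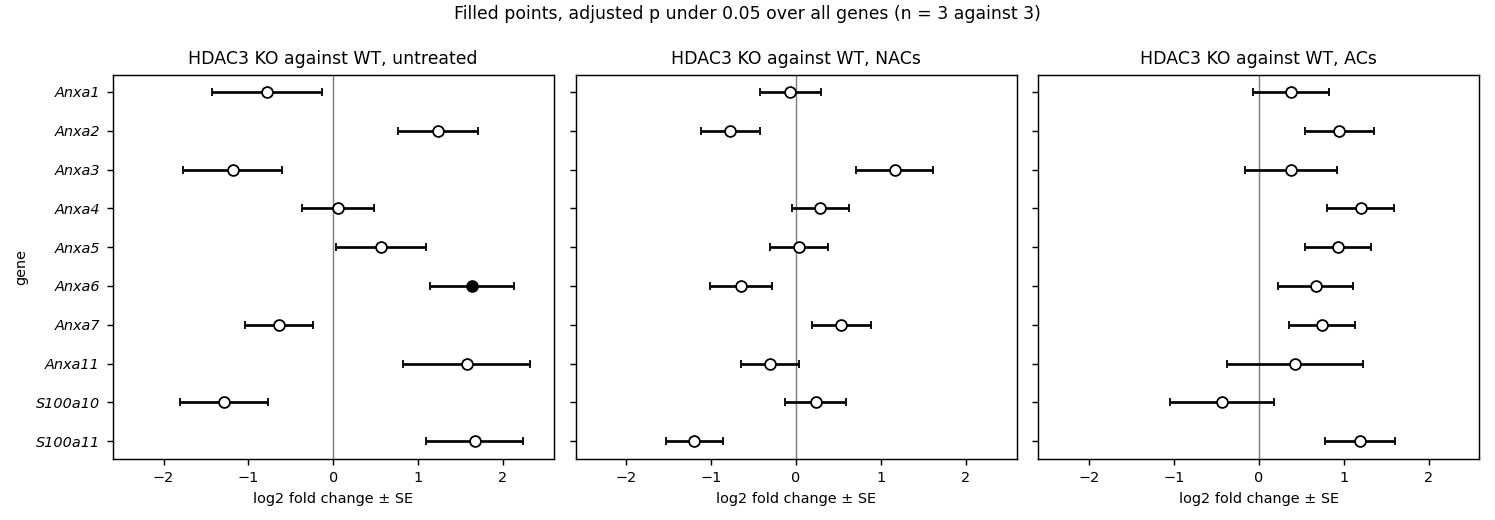
Log2 fold change of KO against WT with its standard error for each member, in untreated, NACs and ACs cultures (n = 3 against 3), with filled points for an adjusted p under 0.05. Only *Anxa6* in untreated cultures is filled, and *S100a11* and *Anxa2* change side from untreated to NACs and back with ACs.

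Among the treatment comparisons, ACs against NACs in WT had 3 members without overlap, *Anxa2*, *Anxa5* and *S100a11*, all lower with ACs, beside 10.4% of all genes in either direction and 4.89% in this one. edgeR called none of the members and no gene at all in that comparison (0% called), DESeq2 called none of the members, and 2 members and 4.16% of all genes had an unadjusted p under 0.05. In KO, 4 members did not overlap, *Anxa2*, *Anxa4*, *Anxa5* and *S100a11*, all higher with ACs, beside 29.4% of all genes in either direction and 14.6% in this one. There edgeR called none of the members and 7.38% of all genes, DESeq2 called *S100a11* and 1430 of 12244 genes, and 2 members had an unadjusted p under 0.05, beside 25.3% of all genes. ACs against untreated gave no called member in either genotype with either tool and, with edgeR, no called gene (0%), with 5 and 15 genes called by DESeq2 and 0 members in WT and 2 in KO at an unadjusted p under 0.05, beside 12.7% and 14.5% of all genes. DESeq2 gave no adjusted p there in KO for *Anxa3*, *Anxa4*, *Anxa7*, *Anxa11* and *S100a10*. The 1 member free of overlap in each genotype was *Anxa7*, lower with ACs in WT, beside 15.5% of all genes, and higher with ACs in KO, beside 21.5%. NACs against untreated gave an unadjusted p under 0.05 for 6 members in WT, beside 33.2% of all genes, and left 3 members without overlap in WT, beside 29.7%, and 3 in KO, beside 38.7%. In KO edgeR called no member and 6.54% of all genes, and 5 members had an unadjusted p under 0.05, beside 30.4% of all genes. DESeq2 called 2 members there, beside 2309 of 12143 genes.

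The test of the genotypes' difference in response gave its calls for NACs against untreated. Of the 10 members 6 were called, beside 34.8% of all genes, and the same number had an unadjusted p under 0.05, beside 47.4%: *Anxa3*, *Anxa7* and *S100a10* with a positive and *Anxa2*, *Anxa6* and *S100a11* with a negative difference of KO minus WT. The untreated and NACs libraries of this test are those of the pairwise comparisons. With the GC and length offset only *S100a11* was called, and the number of genes called over the whole table fell from 4530 to 1601. DESeq2 called 4 members, all but *Anxa7* and *S100a10*, beside 5639 of 13005 genes. For ACs against NACs edgeR called no member and 0.0765% of all genes, 4 members had an unadjusted p under 0.05, beside 20.0% of all genes, and DESeq2 called 2, beside 762 of 13076 genes. For ACs against untreated edgeR called no member and no gene (0%), 1 member had an unadjusted p under 0.05, beside 24.1% of all genes, and DESeq2 called no member and 1225 of 13225 genes.

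**Figure D5:**
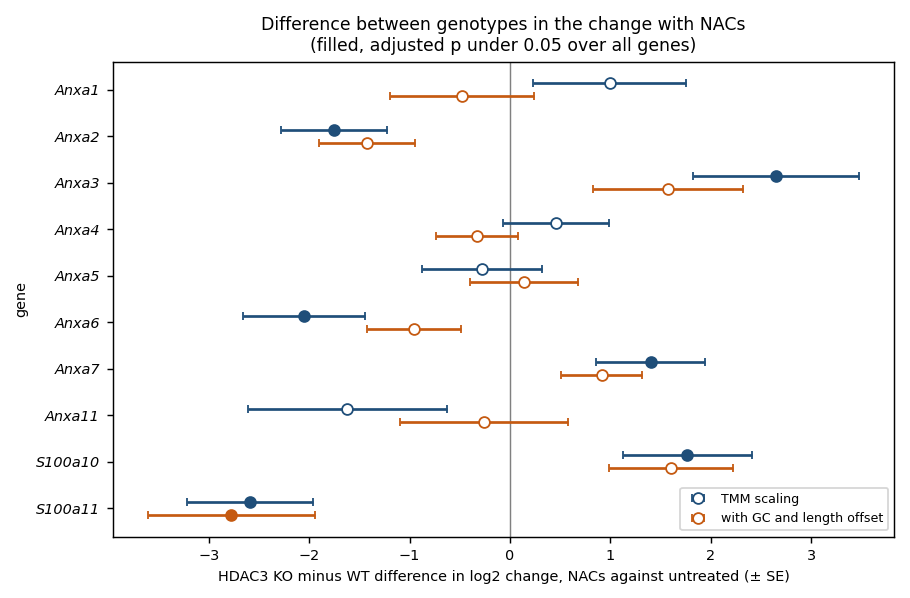
Difference between KO and WT in the log2 change from untreated to NACs, with its standard error, for each member with TMM scaling (blue) and with the GC and length offset (orange), filled where the adjusted p was under 0.05. Filled blue points stand for 6 members, and *S100a11* alone is filled in both, at -2.59 and -2.77.

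Other genes of the families and pathways were taken from fixed lists, with calls by edgeR from the main fit alone. Their values with the GC and length offset or without 1 library are not given. Of the 4 other annexins *Anxa8*, *Anxa10* and *Anxa13* had at most 10 counts in any library, and *Anxa9*, at a median of 2.79 CPM, was tested and not called in any comparison. Of 14 other S100 genes 7 or 8 were tested, and *S100a6*, which also binds annexins, was the 1 gene called: its log2 difference was -1.40 ± 0.35 for KO NACs against WT NACs (adjusted p = 0.0474) and -2.27 ± 0.57 for the interaction of NACs against untreated (adjusted p = 0.00567). Of the 7 formyl peptide receptors *Fpr1* and *Fpr2* were tested and not called, and the other 5 were at 0 counts throughout. Among the listed genes of the plasminogen system *Plau*, the urokinase that makes plasmin, was higher in KO ACs than in WT ACs (2.12 ± 0.48, adjusted p = 0.0285). *Serpinb2*, an inhibitor of urokinase, was lower with ACs than with NACs in KO (-2.09 ± 0.65, adjusted p = 0.0461), at no more than 46 counts in any library. *Plg* had no count at all.

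The list for calcium-dependent membrane repair and annexin binding held 16 genes, of which 13 or 14 were tested. In the interaction of NACs against untreated 8 were called with a positive and 2 with a negative difference, beside 34.8% of all genes called, and the list's median was 1.63 against 0.12 over all genes. The positive ones included the ALG-2 gene *Pdcd6* (2.06 ± 0.53, adjusted p = 0.00688) and its partner ALIX, *Pdcd6ip* (2.55 ± 0.53, adjusted p = 0.00191), the ferlin *Myof* (2.63 ± 0.69, adjusted p = 0.00783) and *Ahnak*, a scaffold that binds annexin A2 and S100A10 (1.69 ± 0.58, adjusted p = 0.0279). *Tsg101*, *Vps4b*, *Sri* and *Capn2* also had positive differences, of 1.62 or more, while *Capn1* was at -1.85 and *Dysf* at -5.61. *Dysf*, which encodes the repair protein dysferlin, had at most 58 counts in a library and none in 2. These values are from the main fit. With the GC and length offset the number of genes called in this interaction fell from 4530 to 1601 over the whole table. How many of the listed genes kept their call with it is not given. In the pairwise comparisons *Dysf* was called higher in untreated KO than in untreated WT and with ACs than with NACs in KO, *Capn1* higher and *Myof* and *Vps4b* lower with NACs than untreated in WT, and *Pdcd6* and *Pdcd6ip* higher with NACs than untreated in KO.

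The gene nearest to each member in its pattern was found by Spearman's rho of levels over the 18 libraries, which share depth and scaling, as a description. *Anxa2* lay nearest to *Trem2* (0.959), a lipid receptor of phagocytes, then to *S100a11* and *Ifi30*, and *S100a11* nearest to *Anxa2*, *Ifi30* and *Sdc1*. *Anxa3* lay nearest to *Rin2* (0.965), and close to the scavenger receptor gene *Cd36* (0.913), *Anxa4* to *Lta4h* (0.965), which makes leukotriene B4, *Anxa5* to *Tmem159* (0.94), *Anxa6* to the ATP-gated channel gene *P2rx4* (0.957), *Anxa7* to *Hsd17b12* (0.977) and *Anxa11* to *Cyb561a3* (0.963). *Anxa1* and *S100a10* had weaker neighbours, *Atp6v0d2* (0.862) and *Cox7b* (0.893).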

How the data were processed

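RNA of 18 BMDM cultures was sequenced by the authors as paired reads, trimmed with Trimmomatic 0.36, aligned with STAR 2.5.2b to GRCm38 and counted per gene with featureCounts of Subread 1.5.2, per the submitters' processing notes. The strand setting and annotation release are not given in the sources used here. The deposited values are raw counts per gene. Genes were named through GENCODE M21, to which 48970 of 49315 matched by identifier. Genes that overlap a member had at most 9 counts in a library, and the copy *S100a11-ps* at most 2.

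edgeR 4.0.16 (R 4.3.3) was run separately for every comparison, with only the libraries compared: filterByExpr with a minimum count of 10 and a minimum total of 15, TMM, the robust quasi-likelihood test and Benjamini-Hochberg adjustment over all genes tested, called under an adjusted p of 0.05. A fold change and test are given for each member and comparison with an unadjusted p under 0.05, and other pairs by counts and ranges. Groups do not overlap where the lowest library of one is above the highest of the other. Alternatives were the size factors and the Wald test of DESeq2 1.42.0, library totals without TMM, no filter, a joint fit of all 18 libraries, an offset per library for GC content and exon length (mgcv 1.9.3), a block for the replicate number with and without that offset, and fits without 1 library. The scripts were tested on simulated data. Members, lists and tests were chosen with earlier results of these data known. The fits give p-values for the spread between cultures, which the methods describe as 3 animals per group, and the labels do not say whether treatments share animals. Total counts of 4704491 to 26421267 per library set the precision. Results for some listed genes are not reported here.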

Additional observations from a re-analysis of the deposited data

Results flagged for a closer look

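The response to NACs against untreated differed between the genotypes for 6 of the 10 members by the test of that difference in edgeR, given as KO minus WT on the log2 scale. It was -1.75 for *Anxa2* (adjusted p = 0.0153), 2.65 for *Anxa3* (adjusted p = 0.0213), -2.05 for *Anxa6* (adjusted p = 0.0136), 1.40 for *Anxa7* (adjusted p = 0.0476), 1.77 for *S100a10* (adjusted p = 0.0388) and -2.59 for *S100a11* (adjusted p = 0.00471). Of all genes tested, 34.8% were called in this comparison. With the GC and length offset 5 of these calls were lost and only that of *S100a11* was kept. The values that lost their call were then -1.42 for *Anxa2*, 1.58 for *Anxa3*, -0.96 for *Anxa6*, 0.91 for *Anxa7* and 1.60 for *S100a10*. With the replicate block added to the offset, *S100a11* was at -2.31 and was not called either (edgeR adjusted p = 0.0656). DESeq2 size factors and the DESeq2 Wald test lost the calls of *Anxa7* (adjusted p = 0.123 and 0.106) and *S100a10* (adjusted p = 0.108 and 0.0965). All 18 libraries in one fit lost those of *Anxa3* (adjusted p = 0.0561), *Anxa7* (adjusted p = 0.115) and *S100a10* (adjusted p = 0.178), library totals alone that of *Anxa2* (adjusted p = 0.0852), and no filter that of *Anxa7* (adjusted p = 0.171). The mean of the GC measure of the libraries moved by group in the same comparison, from -1.03 to 0.46 in WT and from 1.05 to -0.63 in KO.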

How the results depend on the processing

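The counts of members called (edgeR, adjusted p under 0.05 over all genes) depended on the setting, and where a count moved the cause was not tested. For untreated KO against WT, where the count was 1, library totals alone gave 2, *Anxa3* and *S100a10*, both lower, in place of *Anxa6* (beside 2405 of 12101 genes called), the DESeq2 Wald test 3 (3314 of 12101), no filter 3 (1417 of 24895), all 18 libraries in one fit 3 (3308 of 13662) and the GC and length offset 0 (0 of 12101). For KO against WT with NACs (0), the Wald test gave 1 (434 of 11923) and no filter 2 (575 of 25226), and with ACs (0) the Wald test gave 2 (1373 of 12304) and the offset 1 (1293 of 12304). For NACs against untreated in WT (1), library totals, the joint fit and the offset gave 0 (each with 0 genes) and the Wald test 3 (1679 of 11912), and in KO (0) library totals gave 1 (2112 of 12143), no filter 1 (1479 of 23470) and the Wald test 2 (2309 of 12143). For ACs against NACs in KO (0), the Wald test and the offset gave 1 (1430 and 689 of 12244). For the interaction of ACs against NACs (0), DESeq2 size factors and the offset gave 1 (38 and 280 of 13076), the Wald test 2 (762 of 13076) and no filter 2 (537 of 27916). For the interaction of NACs against untreated (6), DESeq2 size factors and the Wald test gave 4 (5010 and 5639 of 13005), library totals alone 5 (4001 of 13005, without *Anxa2*), the joint fit 3 (4733 of 13662, without *Anxa3*, *Anxa7* and *S100a10*) and the offset 1 (1601 of 13005), while no filter gave 6 (4271 of 28195) with *Anxa11* in place of *Anxa7*. Without 1 library, the counts are given with the genes called at their highest count. They ran from 0 to 6 for untreated KO against WT (5887 of 12714, without replicate 1 of untreated KO), 0 to 4 with NACs (3121 of 12663, without replicate 2 of WT NACs), 0 to 1 with ACs (1693 of 12697, without replicate 2 of KO ACs), 0 to 5 for NACs against untreated in WT (4232 of 12383, without replicate 2 of WT NACs) and 0 to 4 in KO (4441 of 12493, without replicate 1 of untreated KO), 0 to 4 for ACs against NACs in KO (3013 of 12623, without replicate 2 of KO ACs), 0 to 2 for the interaction of ACs against NACs (782 of 13884 or 826 of 13450, without replicate 2 of WT NACs or of KO ACs), and 3 to 6 for that of NACs against untreated (5370 of 13785, without replicate 2 of WT NACs). No member and comparison with an unadjusted p under 0.05 changed sign under these settings, although the Wald test gave no adjusted p for *Anxa3* and *Anxa7* in ACs against untreated in KO. Library totals alone shifted the median log2 difference of all genes from 0.06 to -0.42 for untreated KO against WT and from 0.12 to 0.70 for the interaction of NACs against untreated, where DESeq2 size factors gave -0.27.

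The replicate numbers gave no clear pairing of the libraries by the rule used. In no comparison did all same-numbered libraries deviate together with a correlation over 0.1, and a library deviated most like its own number in 28 of 90 cases. These deviations, from means of 3 libraries, cannot show whether cultures shared animals. For ACs against untreated in WT all same-numbered correlations were positive (0.064 to 0.461). The replicate block called no member there, beside 53 of 12199 genes. With it 3 members had an edgeR unadjusted p under 0.05, beside 2646 genes, against 0 members and 1551 genes without it. With the replicate block, the count was 0 for untreated KO against WT (1336 of 12101 genes), 3 for NACs against untreated in WT (1784 of 11912) and 5 for the interaction of NACs against untreated (4125 of 13005), where *Anxa3* was at 2.74 (adjusted p = 0.0696). With the replicate block and the offset together, it was 0 for untreated KO against WT (0 of 12101), 1 with ACs (607 of 12304), 0 for NACs against untreated in WT (3 of 11912), 1 for ACs against NACs in KO (1047 of 12244), 1 for the interaction of ACs against NACs (98 of 13076) and 0 for that of NACs against untreated (977 of 13005), where *S100a11* was at -2.31 (adjusted p = 0.0656).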
